A study of Drosophila melanogaster with 15 samples.

Results

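The 3 libraries labelled Gsk3CA were set against the 3 Mef2>+ libraries, 6 of the 15 RNA-seq libraries of the series, and were picked by the genotype label alone. Mef2>Gsk3CA larvae carried the muscle driver Mef2-Gal4 with a transgene for a constitutively active Gsk3 from a stock center, and Mef2>+ larvae carried the driver with no transgene. The other genotypes were Mef2>Deaf1 (Deaf1 overexpression), Mef2>Deaf1RNAi (a hairpin against Deaf1) and Mef2>whiteRNAi (a control hairpin against the eye-pigment gene w), with 3 libraries each. All 5 genotypes share the driver. RNA came from filleted Drosophila larvae, in which body wall muscle and epidermis remain, and the sex of the larvae and the lanes of the libraries were not given. Mef2-Gal4 is also active in visceral muscle and in some brain cells, and a transgene and the stock background that carries it cannot be told apart with 1 stock. In bulk RNA, fewer cells of a type and less RNA per cell cannot be told apart either. The labels say that the replicates are separate samples of a genotype, and not from which culture each came, so the p-values measure the spread between these libraries.

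Gsk3, encoded by shaggy (sgg) in Drosophila, is a serine/threonine kinase with many substrates. It marks Armadillo (beta-catenin) for destruction and so restrains Wnt target genes, it inhibits glycogen synthase, and it is itself inhibited downstream of insulin and Akt. Larval muscle grows by enlarging existing fibers, and the samples were made to ask whether Gsk3 and Deaf1 change the expression of similar genes in it.

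Counts on genes came to 30.3 M, 26.3 M and 21.2 M reads in the libraries labelled Gsk3CA, against 21.4 M, 16.2 M and 18.9 M in Mef2>+. Values are given as CPM (counts per M reads on genes, scaled with TMM factors). Each gene was tested in 1 edgeR quasi-likelihood model of all 15 libraries, p-values were adjusted by the Benjamini-Hochberg method over all genes tested, and a gene with an adjusted p under 0.05 was called. Entries on no annotated feature made up 5.41, 6.07 and 5.75% of the libraries labelled Gsk3CA, against 3.68, 3.87 and 3.36% of Mef2>+.

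The gene for Gsk3 was examined first, because a transgene that carries its coding sequence can add reads to it. sgg stood at 339, 335 and 526 CPM in the libraries labelled Gsk3CA, against 418, 433 and 254 CPM in Mef2>+. The genotypes overlapped: replicates 1 and 2 of the libraries labelled Gsk3CA lay below replicates 1 and 2 of Mef2>+, and the replicates numbered 3 stood the other way round. The log2 fold change was 0.12 (standard error 0.24, edgeR adjusted p = 0.779), and the two-sided exact permutation test of the CPM gave p = 0.7, where 0.1 is the smallest value that 3 against 3 libraries allow. Without replicate 3 of the libraries labelled Gsk3CA the log2 fold change was −0.00359, without Mef2>+ replicate 3 it was −0.11, and without both it was −0.20. A non-coding gene, lncRNA:CR45197, shares exon sequence with sgg on the same strand in the BDGP6 annotation. The level of sgg in these libraries thus does not by itself bear out the label. The study also assessed Gsk3 mRNA levels in this genotype and took them as raised, unlike the sgg reads here, and that measure is not used here. Every direction below is that of the libraries labelled Gsk3CA.

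Genes that the other genotypes target were examined next. The eye-pigment gene w, at 10.5 to 14.9 CPM in Mef2>whiteRNAi, stood at 36.7, 29.9 and 55.1 CPM in the libraries labelled Gsk3CA and 40.5, 35.8 and 35.6 CPM in Mef2>+. Deaf1, the transcription factor altered in the other genotypes, stood at 33.1, 34.2 and 41.0 CPM in the libraries labelled Gsk3CA and 35.7, 37.0 and 31.8 CPM in Mef2>+. Neither differed by the test (edgeR adjusted p = 0.714 for w and 0.771 for Deaf1). A gene that did set the libraries labelled Gsk3CA apart, picked after its values were seen, was the cuticle pigment gene y. It had 37, 23 and 36 reads in them (1.08, 0.743 and 1.69 CPM), against 2, 0 and 0 reads in Mef2>+ (edgeR adjusted p = 0.016), and at most 0.42 CPM in the other 9 libraries. The call for y was lost without replicate 1 of the libraries labelled Gsk3CA or without Mef2>+ replicate 2, with adjusted p of at most 0.053.

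**Figure D1:**
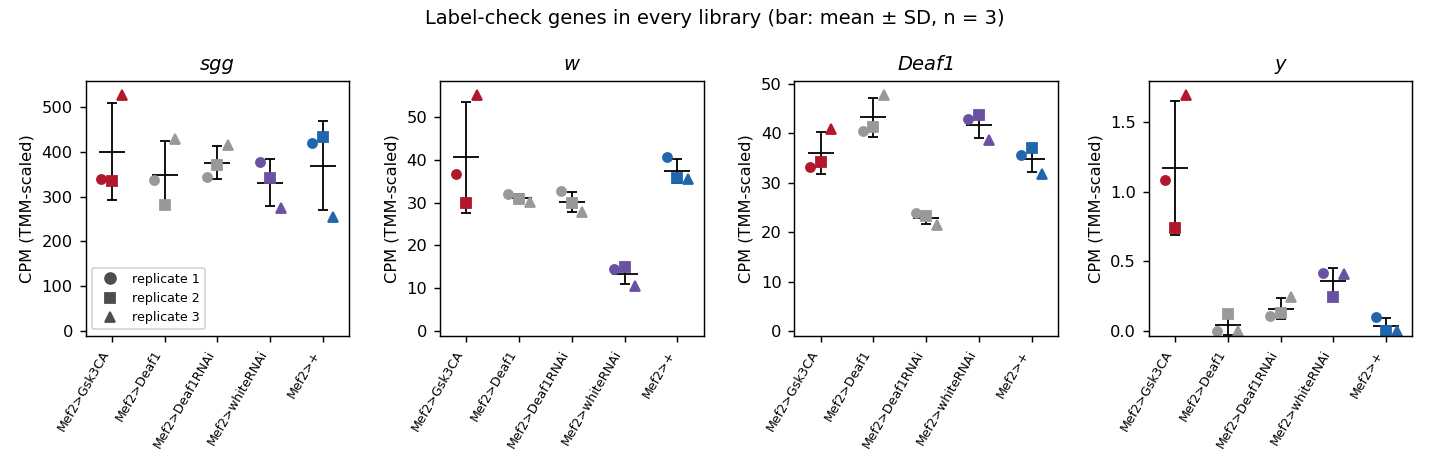
CPM of sgg, w, Deaf1 and y in each library, with genotypes along the horizontal axis, 1 symbol for each replicate, and the mean ± SD of 3 libraries as bars. sgg overlaps between Mef2>Gsk3CA (far left) and Mef2>+ (far right), w is lowest in Mef2>whiteRNAi, and y is highest in the 3 Mef2>Gsk3CA libraries.

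In both genotypes replicate 3 stood apart. Across the genes tested, the Pearson correlation of log2 CPM between replicates 1 and 2 was 0.990 in the libraries labelled Gsk3CA, against 0.992 in Mef2>+. Replicate 3 of the libraries labelled Gsk3CA correlated at 0.943 and 0.916 with its own replicates and at 0.934, 0.923 and 0.936 with the 3 Mef2>+ libraries. It was therefore about as similar to the control as to its own genotype, whereas replicates 1 and 2 correlated with Mef2>+ replicates 1 and 2 at 0.796 to 0.843. Genes are not independent replicates, and these coefficients are descriptions. Counts of called genes are therefore also given without both libraries numbered 3, an alternative chosen after seeing the data.

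Genes of the testis followed this pattern. Spermatocytes transcribe a large set of genes that other tissues hardly use, among them forms of tubulin, proteasome subunits and mitochondrial proteins made for sperm. Of the genes listed, 64 passed the expression filter: 9 of 15 transcriptional regulators of spermatocytes, 41 of 44 spermatid and sperm genes, 12 of 14 testis proteasome subunits and 2 of 10 fertility genes of the Y chromosome. Their CPM summed to 1037, 1132 and 323 in the libraries labelled Gsk3CA, against 126, 120 and 265 in Mef2>+, and to 101 to 181 in the other 9 libraries. All 64 reached 1 CPM in replicates 1 and 2 of the libraries labelled Gsk3CA and 45 did in replicate 3, against 12, 10 and 43 in Mef2>+. The sums of the genotypes thus did not overlap, but the libraries numbered 3 differed far less than those numbered 1 and 2.

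**Figure D2:**
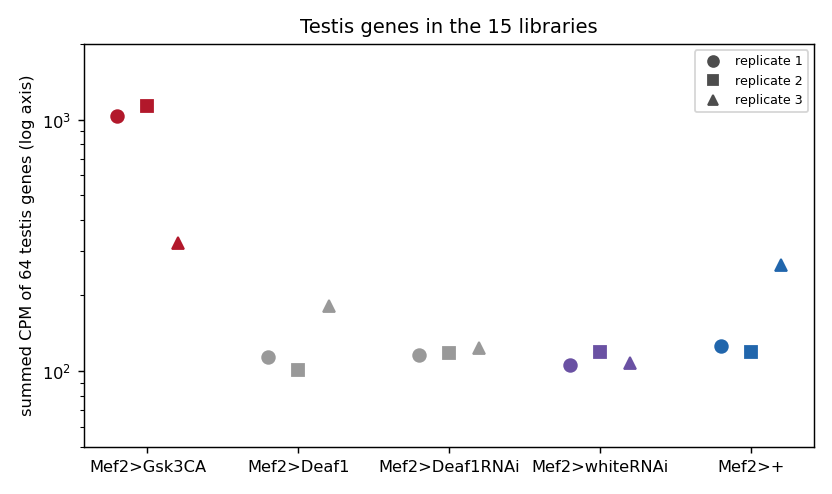
Summed CPM of 64 testis genes in each of the 15 libraries (log axis), by genotype, 1 symbol for each replicate. Replicates 1 and 2 of Mef2>Gsk3CA lie above 1000, replicate 3 at 323, and Mef2>+ replicate 3, at 265, is the highest of the other 12 libraries.

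The test called 11 of the 64 testis genes higher and 0 lower in the libraries labelled Gsk3CA (17.2%, against 5.19% of all 10930 genes tested), although 63 had a positive log2 fold change, the median was 3.49 and the libraries did not overlap for 46. For comparison, 16.7% of all genes tested were higher without overlap. Against Mef2>whiteRNAi, whose libraries lie among those 9, 59 of the 64 were called higher with a median of 6.83 (19.1% of all genes tested were called higher there). Without both libraries numbered 3 the calls against Mef2>+ were 9 of 9 regulators, 40 of 41 spermatid and sperm genes and 12 of 12 proteasome subunits. In that fit 2756 of all 11567 genes tested were called higher, and it leaves out the libraries that differed least in testis genes. With all libraries DESeq2 called 7 of the regulators, 14 of the spermatid and sperm genes and 2 of the proteasome subunits higher, where edgeR called 1, 8 and 2. Of all 10930 genes tested DESeq2 called 1232 higher and edgeR 567.

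Individual members had the same shape. betaTub85D, the tubulin of the male germ line, stood at 92.7, 95.8 and 18.9 CPM in the libraries labelled Gsk3CA and at 0.614, 0 and 13.6 CPM in Mef2>+, and its log2 fold change of 3.85 did not pass the test (edgeR adjusted p = 0.078). fzo, the mitofusin that joins mitochondria in spermatids, stood at 22.9, 25.6 and 5.74 CPM in the libraries labelled Gsk3CA and at 0.614, 0.472 and 4.26 CPM in Mef2>+ (log2 fold change 3.33, standard error 0.79, edgeR adjusted p = 0.019). Mst87F, a sperm tail protein, was at 27.4, 27.3 and 6.35 CPM, against 1.64, 0.809 and 4.87 CPM in Mef2>+ (3.05, adjusted p = 0.019). Each of these genes was high in replicates 1 and 2 of the libraries labelled Gsk3CA, close to 0 in replicates 1 and 2 of Mef2>+, and between in both libraries numbered 3. The calls for fzo and Mst87F were lost when replicate 1 or 2 of either genotype was left out (highest adjusted p 0.072 and 0.077). vis, a spermatocyte regulator of transcription, was at 15.3, 15.9 and 3.06 CPM in the libraries labelled Gsk3CA and 2.05, 1.69 and 3.88 CPM in Mef2>+, so that its call (2.17, adjusted p = 0.017) rests on libraries that overlap. A different order was seen in Rpt6R, a testis form of a proteasome ATPase, with 15.6, 15.3 and 22.9 CPM in the libraries labelled Gsk3CA and 8.13, 6.75 and 3.16 CPM in Mef2>+ (1.57, adjusted p = 0.024). Here replicate 3 was the highest of the 6 libraries, and against Mef2>whiteRNAi the log2 fold change was −0.083. The germline genes bgcn, which directs germ cells to differentiate, and aub, an Argonaute of the piRNA pathway, were also called higher (3.98 and 1.74, adjusted p = 0.032 and 0.031), and both calls were lost without replicate 1 or 2 of either genotype. The call for aub was also lost without Mef2>+ replicate 3. Only 4 of the 64 testis genes had a steady level in both genotypes, and f-cup and m-cup were the 2 of them that were called (0.60 and 0.35, adjusted p = 0.020 and 0.043).

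The reach of this signal was measured with a rule that used only the 9 libraries of the other genotypes. In those, 485 tested genes followed the mean level of the testis lists with a Pearson correlation of at least 0.9 and a range of at least 2 log2 units, a rule that rests mostly on Mef2>Deaf1 replicate 3. In the libraries labelled Gsk3CA, 483 of the 485 had a positive log2 fold change (median 3.70), 397 were higher without overlap, and replicate 3 was the lowest library in 483. The test called 17 of them higher and 1 lower (3.71%, against 14.1% of all genes tested), and 479 were called higher against Mef2>whiteRNAi. Only 2 of the 485 had a steady level among replicates. The rule picks genes with a wide range in libraries that also enter the model's estimate of spread, which makes a call less likely. Their low share of calls against Mef2>+ is therefore no measure of how far they differed, and their median difference was large.

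Over all genes, 1536 of 10930 were called (14.1%), 567 higher and 969 lower in the libraries labelled Gsk3CA, and 3807 had an unadjusted p under 0.05. To divide the calls by spread between replicates, a gene was called steady if its log2 CPM spanned at most 1 within each genotype. A steady gene need not change alike in all replicates: sgg was steady (ranges 0.65 and 0.77), although its genotypes overlapped. A low spread also favours a call, so the counts by spread are a description. Of the 7283 steady genes tested, 1098 were called, 214 higher and 884 lower. Of the 3647 genes with a wider range, 438 were called, 353 higher and 85 lower. The directions in this fit divided by spread: 62.3% of the higher calls had a range over 1, and 91.2% of the lower calls were steady. Among the 353 wide-range genes that were higher, replicate 3 was the lowest of the libraries labelled Gsk3CA in 335 and the highest of Mef2>+ in 312. Nearest to the limit, eIF4G2, Pen and CG5660 lay just inside (0.999, 0.998 and 0.997) and CG7386, CG14868 and CG8368 just outside (1.001, 1.005 and 1.005).

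**Figure D3:**
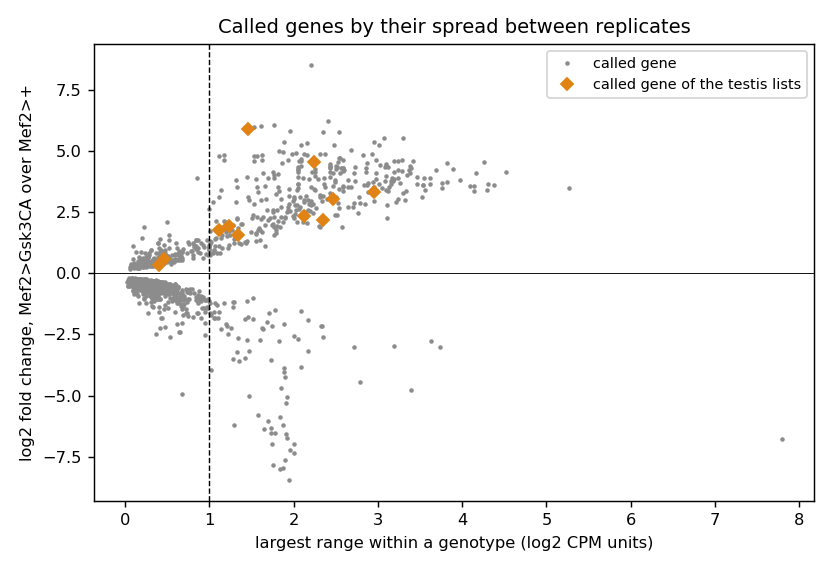
Log2 fold change of each called gene, Mef2>Gsk3CA over Mef2>+, against its largest range of log2 CPM within a genotype, with called genes of the testis lists as diamonds and a dashed line at a range of 1. Left of the line 884 of 1098 genes are below 0, and right of it 353 of 438 are above 0.

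Without both libraries numbered 3 3716 genes were called, 2756 higher and 960 lower, of which 1026 were among the 1536, and the steady genes called were 1251, 666 higher and 585 lower. Relative log expression factors in place of TMM moved all log2 fold changes up by a median of 0.097 and gave 759 higher and 543 lower genes in all, and 390 higher and 473 lower among steady genes, so the excess of lower steady genes depends in size on the scaling. With only the 6 libraries in the model 85 genes were called and 63 of them were steady. Leaving out 1 library, the whole count was 453 without replicate 1 of the libraries labelled Gsk3CA, 445 without replicate 2 and 2450 without replicate 3, and it was 571, 847 and 2837 without Mef2>+ replicates 1, 2 and 3. The steady count ran from 385 to 1165 in these fits, lowest without replicate 2 of the libraries labelled Gsk3CA. The directions turned without replicate 3 of the libraries labelled Gsk3CA, to 573 higher and 531 lower among steady genes and 1765 higher and 685 lower in all, and without Mef2>+ replicate 3 they were 195 and 970 among steady genes and 1765 and 1072 in all. DESeq2 called 1232 higher and 818 lower in all, and 616 higher and 706 lower among steady genes, so the excess of lower genes over all calls is not shared by every fit.

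Among steady genes with at least 2 CPM on average, the largest rise was in CG4562, a predicted ABC transporter. It stood at 15.2 to 21.6 CPM in the 3 libraries labelled Gsk3CA and at 0.877 to 1.66 CPM in Mef2>+ (log2 fold change 3.88, standard error 0.25, edgeR adjusted p = 1.09e-05). However, it was also high in Mef2>whiteRNAi (13.3 to 18.8 CPM) and Mef2>Deaf1RNAi (13.8 to 14.7 CPM), and low in Mef2>Deaf1 (0.77 to 1.34 CPM), so that against Mef2>whiteRNAi it did not differ by the test (0.23, adjusted p = 0.437). The second, nimC1, encodes a receptor by which blood cells engulf bacteria. It stood at 50.6, 44.9 and 57.1 CPM in the libraries labelled Gsk3CA and 12.2, 13.7 and 9.69 CPM in Mef2>+ (2.10, standard error 0.17, adjusted p = 6.47e-05), and it was higher than in Mef2>whiteRNAi as well (1.20, adjusted p = 0.0017). Of 11 other blood cell markers tested, a count that leaves out nimC1, 0 were called higher by edgeR and 1 was called lower. These counts lie near the shares of all genes tested (5.19% higher and 8.87% lower). At an unadjusted p under 0.05 there were 3, and 0 were called higher by DESeq2 or limma voom. The 1 called lower was the matrix peroxidase gene Pxn (196, 173 and 197 CPM, against 288, 276 and 370 CPM in Mef2>+, −0.72, adjusted p = 0.0096). The cytochrome P450 gene Cyp4p2 rose with a small error, at 133, 144 and 123 CPM in the libraries labelled Gsk3CA and 35.9, 35.4 and 38.2 CPM in Mef2>+ (1.87, standard error 0.08, adjusted p = 2.85e-07). The other 9 libraries held it at 0.12 to 55.1 CPM, lowest in Mef2>Deaf1, so the libraries labelled Gsk3CA were the highest of all 15.

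Pdk, the kinase that inactivates pyruvate dehydrogenase and so limits the entry of pyruvate into the citric acid cycle, stood at 325, 345 and 241 CPM in the libraries labelled Gsk3CA and 107, 109 and 139 CPM in Mef2>+ (log2 fold change 1.36, standard error 0.28, edgeR adjusted p = 0.012). Against Mef2>whiteRNAi the log2 fold change was 1.66 (adjusted p = 0.0037). Its call was lost without Mef2>+ replicate 1 (1.27, adjusted p = 0.052). The sodium/hydrogen exchanger gene Nha2 (1.37) and the neprilysin protease gene Nep3 (1.26) also rose against both controls, and the receptor gene GABA-B-R3 rose against Mef2>+ (1.34) but not by the test against Mef2>whiteRNAi (0.56, adjusted p = 0.209). CG43322, CG8908 and CG13650 completed the 10 largest steady rises (1.25 to 1.35). Calls for Nha2, GABA-B-R3, CG43322, CG8908 and CG13650 were each lost in 3 to 5 of the 6 fits that left out a library (highest adjusted p 0.10).

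The largest steady falls were in CG17111, Cpr49Ad and CG11668. CG17111 stood at 2.46, 3.36 and 3.20 CPM in the libraries labelled Gsk3CA and 17.1, 15.2 and 22.0 CPM in Mef2>+ (log2 fold change −2.59, standard error 0.20, edgeR adjusted p = 4.95e-05), and its exons overlap Ublcp1 on the opposite strand. Against Mef2>whiteRNAi it was 0.44 and not called, and the sign was likewise positive there for CG13046, CG32373 and CG31019 (0.56, 0.57 and 0.10, lowest adjusted p 0.133), which fell by 1.83 to 2.22 against Mef2>+. For these 4 genes the direction thus depends on the control. Cpr49Ad, a cuticle protein gene, stood at 2.95, 2.71 and 3.53 CPM in the libraries labelled Gsk3CA and 19.1, 16.9 and 15.7 CPM in Mef2>+ (−2.49, adjusted p = 1.09e-05), with a smaller fall against Mef2>whiteRNAi (−0.60, adjusted p = 0.014). CG11668, which overlaps snk on the opposite strand, stood at 11.7, 9.65 and 14.1 CPM in the libraries labelled Gsk3CA and 68.6, 72.5 and 46.2 CPM in Mef2>+ (−2.41, standard error 0.19, adjusted p = 5.18e-05). It was lower than in every other library of the series and fell against Mef2>whiteRNAi too (−1.86, adjusted p = 4.52e-04).

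Against both controls in the same direction, 370 steady genes were called, 96 higher and 274 lower, out of 1066 that passed the same filters in the comparison with Mef2>+ (13% of all genes tested were called lower against Mef2>whiteRNAi). Both contrasts use the same libraries labelled Gsk3CA, so a call in both is not independent evidence. htl, the FGF receptor that guides mesoderm and muscle founder cells, stood at 6.55, 5.62 and 10.3 CPM in the libraries labelled Gsk3CA and 24.6, 23.9 and 21.3 CPM in Mef2>+ (log2 fold change −1.64, standard error 0.19, edgeR adjusted p = 7.56e-04), and at −1.58 against Mef2>whiteRNAi. TepIV, a secreted thioester protein of the immune response, stood at 105, 98.9 and 124 CPM in the libraries labelled Gsk3CA and 289, 279 and 272 CPM in Mef2>+ (−1.36, standard error 0.14, adjusted p = 4.68e-04), and PGRP-SA, the receptor that senses bacterial cell walls for the Toll pathway, at 3.51, 2.91 and 3.01 CPM, against 8.03, 7.08 and 9.41 CPM in Mef2>+ (−1.38, adjusted p = 0.0071). Both fell less against Mef2>whiteRNAi (−0.90 and −0.82, adjusted p = 0.0027 and 0.027). The peroxiredoxin genes Prx2540-1 and CG12896 are near-identical copies whose reads may have been split or dropped in counting, so their falls of 1.57 and 1.39 on the log2 scale are uncertain. CG9717, CG34454 and CG42402 (−2.08, −1.83 and −1.82) fell, and CG18171, CG17230 and CG13088 (1.24, 1.16 and 1.15) rose, against both controls. Of the 28 steady genes named by the rule, 19 kept their call in all 6 fits that left out a library, 25 were called without both libraries numbered 3, and 12 were called with the 6 libraries alone.

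**Figure D4:**
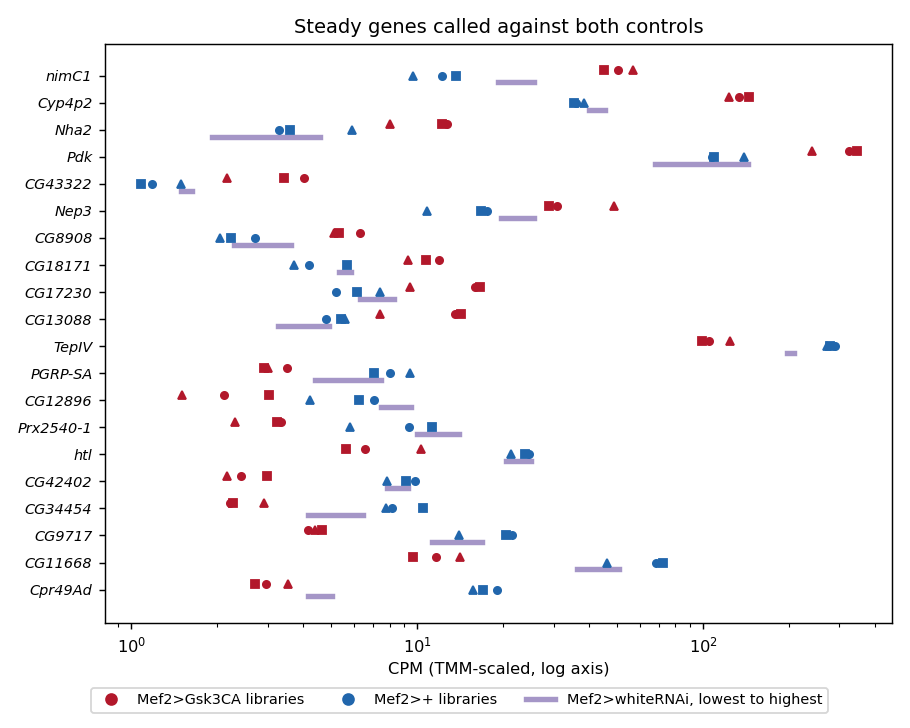
CPM (log axis) of 20 steady genes called in the same direction against both controls, with the 3 Mef2>Gsk3CA and 3 Mef2>+ libraries as symbols (circle, square and triangle for replicates 1, 2 and 3) and the range of the 3 Mef2>whiteRNAi libraries as a bar. For every gene the Mef2>Gsk3CA libraries lie on 1 side of both controls, as for TepIV at 98.9 to 124 CPM against 272 to 289 CPM in Mef2>+. The genes were picked for no overlap with Mef2>+ and a call against both controls, so this separation follows from the choice.

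The same 3 Mef2>+ libraries can themselves stand apart from the rest. Over all genes tested, the libraries labelled Gsk3CA were above all 12 other libraries for 1108 (10.1%) and below them for 307 (2.81%), while Mef2>+ was above all 12 others for 494 (4.52%) and below them for 130 (1.19%). Of the 884 steady genes that fell, the libraries labelled Gsk3CA were the lowest 3 of the series for 178 and Mef2>+ the highest 3 for 264. Of the 214 steady genes that rose, the libraries labelled Gsk3CA were the highest 3 for 49 and Mef2>+ the lowest 3 for 52. Since these genes were chosen from the same contrast, the shares are a description. Genes for which the libraries labelled Gsk3CA stood alone included obst-A, a chitin-binding protein of the cuticle (−1.34 against Mef2>+ and −1.20 against Mef2>whiteRNAi), the thioredoxin reductase gene Trxr-1 (−0.76 and −0.48) and the growth factor gene Idgf4 (−0.71 and −0.96). In the other direction stood Eip63F-1, an ecdysone-inducible calcium-binding protein (1.05 and 1.37), the actin nucleator gene spir (1.03 and 1.11) and the cytochrome P450 gene Cyp4p1 (1.02 and 1.70).

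Muscle genes gave no calls in common. Of 28 sarcomere genes, which build the contractile lattice, 0 were called in either direction (14.1% of all genes tested), with a median log2 fold change of −0.50 and 16 lower without overlap (19.8% of all genes tested were). At an unadjusted p under 0.05 there were 6, and DESeq2 and limma voom each called 0. Against Mef2>whiteRNAi the same genes had a median of 0.58, and 8 were called higher and 0 lower, so the sign depends on the control. Among 19 genes of muscle calcium handling and regulation, CaMKII, the calcium-dependent kinase, rose (377, 444 and 370 CPM in the libraries labelled Gsk3CA, against 274, 259 and 264 CPM in Mef2>+, log2 fold change 0.58, edgeR adjusted p = 0.019), as did the muscle ubiquitin ligase gene mib2 (0.26, adjusted p = 0.040). Both were called against Mef2>whiteRNAi too (0.65 and 0.45), but both calls against Mef2>+ were lost without replicate 1 or 2 of either genotype. The call for mib2 was also lost without Mef2>+ replicate 3. Scgdelta, a sarcoglycan of the muscle membrane, fell (8.01, 6.42 and 10.8 CPM, against 20.5, 17.6 and 18.4 CPM in Mef2>+, −1.17, adjusted p = 0.0043), and was −0.35 and not called against Mef2>whiteRNAi. A list of glutamate receptor subunits of the neuromuscular junction, neto, dlg1 and potassium channel genes had 9 members tested. None of the 9 was called by edgeR (median 0.12), where 2 had an unadjusted p under 0.05, DESeq2 called 1 and limma voom 0.

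Genes of oxidative metabolism fell together. All 24 tested genes of the respiratory chain and ATP synthase were called lower in the libraries labelled Gsk3CA (8.87% of all genes tested were called lower), with log2 fold changes of −0.87 to −0.34 and a median of −0.58. Their CPM summed to 3526, 3328 and 3608 in the libraries labelled Gsk3CA, against 4957, 4676 and 5798 in Mef2>+. Mef2>whiteRNAi held 2822 to 3828, Mef2>Deaf1 2953 to 3355 and Mef2>Deaf1RNAi 5675 to 6110, so that the libraries labelled Gsk3CA lay within the range of one control and below the other. Against Mef2>whiteRNAi the median was −0.06, with 2 called lower. ATPsyn-Cf6, a coupling subunit of ATP synthase, stood at 77.1, 71.9 and 85.1 CPM in the libraries labelled Gsk3CA and 132, 121 and 138 CPM in Mef2>+ (−0.74, standard error 0.09, edgeR adjusted p = 0.0011). The other large falls were in the ATP synthase subunit gene sun (−0.87), cytochrome c, Cyt-c-p (−0.80), and the cytochrome oxidase subunit gene CoVIb (−0.75). The count of 24 was 12, 10 and 15 without replicate 1, 2 or 3 of the libraries labelled Gsk3CA, 17, 22 and 22 without those of Mef2>+, 14 without both libraries numbered 3 and 3 with the 6 libraries alone.

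In the citric acid cycle 6 of 15 genes fell and 0 rose (median −0.32; 8.87% of all genes tested were called lower). Relative log expression factors, TMM factors from steady genes and a minimum of 10 counts in every library each left 3. They included kdn, citrate synthase (87.0, 79.5 and 119 CPM in the libraries labelled Gsk3CA, against 157, 138 and 209 CPM in Mef2>+, −0.82, edgeR adjusted p = 0.017), and Mdh2, the mitochondrial malate dehydrogenase (155 to 167 CPM, against 240, 222 and 328 CPM in Mef2>+, −0.73, adjusted p = 0.021). Against Mef2>whiteRNAi the list had a median of 0.21 with 4 called higher, and kdn and Mdh2 were 0.12 and 0.29. Without replicate 1 or 2 of the libraries labelled Gsk3CA none of the 15 was called by edgeR, and without replicate 3 it was 2. Glycolytic genes, a list that the study drew from these samples and that is no independent evidence of direction, had 0 of 11 called by edgeR, DESeq2 or limma voom (2 at an unadjusted p under 0.05), a median of −0.42 against Mef2>+ and 0.32 against Mef2>whiteRNAi. Nor were any of 4 genes of lactate, glycerol phosphate and phosphagen metabolism (−0.62) or 9 of glycogen and trehalose metabolism (−0.32) called by any of the 3 tools (0 and 4 at an unadjusted p under 0.05), and both medians were positive against Mef2>whiteRNAi (0.53 and 0.33). Pdk was thus called in the same direction against both controls, while the cycle and glycolysis lists took opposite signs against them.

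**Figure D5:**
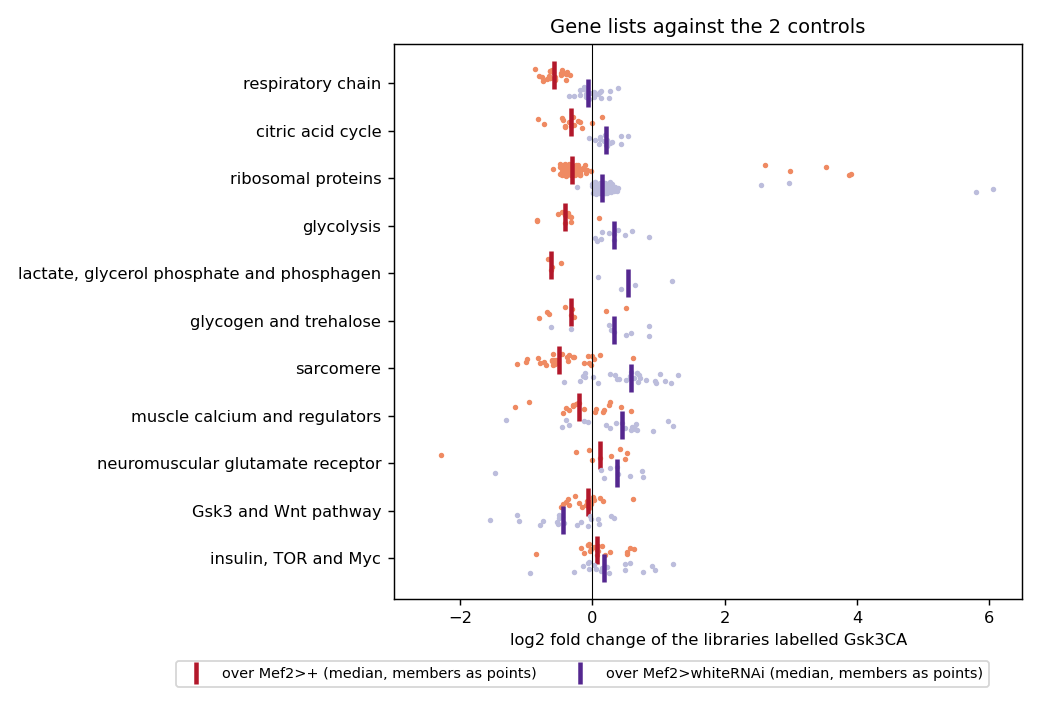
Log2 fold changes of the libraries labelled Gsk3CA over Mef2>+ (upper row of each list) and over Mef2>whiteRNAi (lower row), with members as points and medians as bars. The respiratory chain is at −0.58 and −0.06, and sarcomere, citric acid cycle, ribosomal and glycolysis medians are negative over Mef2>+ and positive over Mef2>whiteRNAi.

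In pathways in which Gsk3 acts, the share of genes called was close to that of all genes tested (14.1%). Of 20 genes of the Wnt pathway, 1 rose and 1 fell (median −0.07), and the fall was not called with relative log expression factors. pan, the TCF factor that binds Wnt target genes, stood at 79.5, 92.6 and 91.7 CPM in the libraries labelled Gsk3CA and 54.6, 56.7 and 61.1 CPM in Mef2>+ (log2 fold change 0.61, edgeR adjusted p = 0.021), but did not pass against Mef2>whiteRNAi (0.33, adjusted p = 0.116). Apc2, a scaffold of the complex in which Gsk3 phosphorylates Armadillo, stood at 12.6, 11.8 and 14.6 CPM, against 17.2, 20.8 and 16.4 CPM in Mef2>+ (−0.48, adjusted p = 0.029), and fell against Mef2>whiteRNAi too (−0.80), where 10 of the 20 genes were called lower and 0 higher by edgeR (13% of all genes tested were called lower there). Of 20 genes of insulin, TOR and Myc signalling 1 rose and 1 fell as well. ImpL2, a secreted protein that binds insulin-like peptides and holds back growth, fell. It stood at 532, 528 and 522 CPM in the libraries labelled Gsk3CA and 988, 1006 and 869 CPM in Mef2>+ (−0.86, standard error 0.14, adjusted p = 0.0039), and at −0.28 against Mef2>whiteRNAi (adjusted p = 0.149). Mnt, which competes with Myc for its partner Max, rose (54.5, 58.2 and 52.3 CPM, against 37.5, 40.9 and 36.8 CPM in Mef2>+, 0.52, adjusted p = 0.028) and was 0.95 against Mef2>whiteRNAi. Single libraries decided the calls for pan, Apc2 and Mnt, which were lost in 3, 4 and 5 of 6 fits, whereas that for ImpL2 was kept in all 6.

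Of 90 ribosomal protein genes 56 fell and 2 rose (median −0.31), where 8.87% of all genes tested were called lower and 5.19% higher. RpL17 stood at 771, 695 and 915 CPM in the libraries labelled Gsk3CA, against 1136, 1107 and 1108 CPM in Mef2>+ (log2 fold change −0.49, edgeR adjusted p = 0.0085), and at 0.08 against Mef2>whiteRNAi. Mef2>+ was above all 12 other libraries for 66 of the 90 (4.52% of all genes tested were). Against Mef2>whiteRNAi 16 were called higher and 0 lower (median 0.15), close to the 19.1% of all genes called higher there. The 2 that rose against Mef2>+, RpL22-like and RpS19b, are paralogs used mainly in the germ line, and RpS19b stood at 4.85, 6.20 and 1.27 CPM, against 0.256, 0.0675 and 0.720 CPM in Mef2>+. Relative log expression factors left 23 lower, a minimum of 10 counts in every library 22, TMM factors from steady genes 26, no filter 33, the replicates left out singly 6 to 63 (6, 9, 9 and 13 without replicates 1 and 2 of the libraries labelled Gsk3CA and of Mef2>+ in turn), and the 6 libraries alone 0.

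Antimicrobial peptide genes, the secreted effectors of the Toll and Imd pathways, were at low levels and lower still in the libraries labelled Gsk3CA than in Mef2>+. Of 14 tested, 10 were called lower and 0 higher (median −3.35), where 8.87% of all genes tested were called lower. Their CPM summed to 18.0, 15.8 and 6.35 in the libraries labelled Gsk3CA, against 45.5, 45.5 and 35.7 in Mef2>+. Mef2>Deaf1RNAi, at 11.4 to 16.6, lay within the range of the libraries labelled Gsk3CA. Mef2>whiteRNAi held 28.3 to 35.3 and Mef2>Deaf1 38.0 to 131. Mtk, metchnikowin, stood at 0.205, 0.0969 and 0 CPM in the libraries labelled Gsk3CA (7, 3 and 0 reads), against 13.5, 12.8 and 5.09 CPM in Mef2>+ (log2 fold change −6.51, edgeR adjusted p = 0.0014). Dro, drosocin, stood at 0.935, 0.872 and 0.282 CPM, against 6.60, 6.88 and 6.20 CPM in Mef2>+ (−3.19, adjusted p = 0.0011), and at −3.08 against Mef2>whiteRNAi, where 5 of the 14 fell (13% of all genes tested were called lower there). The cecropin genes CecA1, CecA2 and CecC had at most 1 read in each library labelled Gsk3CA, against 3 to 32 reads in Mef2>+. The count of 10 was 5, 4 and 10 without replicates 1, 2 and 3 of the libraries labelled Gsk3CA, 5, 6 and 10 without those of Mef2>+, and 10 without both libraries numbered 3. With the 6 libraries alone it was 1, and at least 10 counts in every library left no member called.

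Cuticle protein genes were abundant in these fillets. Of 71 tested, 6 fell and 0 rose (median −0.62), close to the 8.87% of all genes tested that were called lower, so the count does not set these genes apart. DESeq2 called 10 lower, limma voom 9, and a minimum of 10 counts in every library left 3. Lcp3, a structural protein of the larval cuticle, stood at 11106, 9673 and 4776 CPM in the libraries labelled Gsk3CA, against 45774, 42831 and 53403 CPM in Mef2>+ (log2 fold change −2.47, standard error 0.48, edgeR adjusted p = 0.0093), and was −0.11 and not called against Mef2>whiteRNAi. Edg78E and Lcp65Ac fell as well (−2.52 and −2.41), and Lcp65Ac was also lower than in Mef2>whiteRNAi (−2.97). Without single libraries the count was 2 to 10, with 2, 3 and 10 without replicates 1, 2 and 3 of the libraries labelled Gsk3CA and 3, 5 and 5 without those of Mef2>+, and it was 20 without both libraries numbered 3. Ecdysone response genes, which time the moults that these genes accompany, had 2 of 18 called lower (usp and ImpL1) and 0 higher, and of 13 heat shock genes Hsp83 fell (−0.78, adjusted p = 0.026). Both counts lie near the 8.87% of all genes, and neither ecdysone response gene was called lower with relative log expression factors.

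Other tissues that a fillet can retain were measured with lists of their markers. Midgut genes, mostly digestive enzymes, summed to 9.24, 3.97 and 15.8 CPM in the libraries labelled Gsk3CA, against 571, 519 and 155.9 CPM in Mef2>+, and 12 of 23 fell by edgeR (median −4.56, or −4.94 without Jon99Fi, which had no reads in either genotype), where 8.87% of all genes tested were called lower. The same sum ran from 7.57 to 14.2 CPM in Mef2>Deaf1RNAi, 7.85 to 147 CPM in Mef2>Deaf1 and 71.2 to 560 CPM in Mef2>whiteRNAi. Levels this low were thus not particular to the libraries labelled Gsk3CA. limma voom called only 2 midgut genes lower, and a minimum of 10 counts in every library left 1. The trypsin genes gammaTry, CG30031, deltaTry and CG30025, which had the largest falls, are near-identical copies whose reads may be assigned to one another, and gammaTry had 4, 4 and 3 reads in the libraries labelled Gsk3CA. The midgut count was 2, 3 and 12 without replicates 1, 2 and 3 of the libraries labelled Gsk3CA and 3, 9 and 14 without those of Mef2>+. Fat body markers summed to 6744, 6951 and 1465 CPM in the libraries labelled Gsk3CA, against 3345, 3097 and 7793 CPM in Mef2>+, with 0 of 11 called by edgeR and 1 with an unadjusted p under 0.05. Salivary glue (7 tested), neuron and glia (16), imaginal disc (10), and sex and dosage compensation genes (8) also had 0 called by edgeR, with 0, 1, 2 and 0 at an unadjusted p under 0.05. DESeq2 called 1 fat body, 1 neuron and 1 dosage compensation gene, and limma voom none in these lists. Of 8 ecdysone synthesis genes edgeR called 1 higher, tor, the receptor of the prothoracic gland (0.84, adjusted p = 0.0090), and DESeq2 called 2. Against Mef2>whiteRNAi edgeR called 6 of 10 imaginal disc genes lower and 0 higher (median −1.27). There 5 of 8 ecdysone synthesis genes were lower and 1 higher (−2.04), and 3 of 11 fat body genes were lower and 0 higher (−0.65). Over all genes tested 13% were called lower in that contrast. The part of midgut or testis RNA in the other differences was not tested beyond the division by spread. With the testis level as a covariate 40 genes were called, 13 higher and 27 lower. That covariate, the mean log2 CPM of the testis lists, was 3.17, 3.31 and 1.27 in the libraries labelled Gsk3CA, against −1.56, −2.07 and 0.92 in Mef2>+. It does not overlap between the genotypes, so this fit cannot tell testis level from genotype.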

How the data were processed

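RNA of filleted larvae was sequenced as paired reads of 100 bases. Per the paper's methods the authors aligned with STAR to BDGP5 and counted with HTSeq, and the deposited counts are unnormalized reads per gene symbol. The labels also name CASAVA 1.7. Summary lines for unassigned entries were dropped. Of the symbols, 98.0% matched the reference tables. The genes, lists and tests were chosen with earlier results of these data known. edgeR 4.0.16 (R 4.3.3) fitted all 15 libraries with TMM factors, filterByExpr by genotype and the quasi-likelihood test, with Benjamini-Hochberg adjustment at 0.05 over 10930 genes. Log2 CPM used a prior count of 2. Named genes were the 10 largest changes per direction among steady genes (range at most 1, mean log2 CPM of at least 1, libraries apart). Added were the 10 per direction also called against Mef2>whiteRNAi and the 5 largest per direction with a wider range. Each list added up to 4 called genes with the largest change in either direction. No 2 libraries agreed within sampling noise (chi-square per degree of freedom 5.51 or more). The test was checked on simulated counts. Alternatives included DESeq2 1.42.0, limma 3.58.1, other factors and filters, the replicate block and libraries left out.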

Additional observations from a re-analysis of the deposited data

Results flagged for a closer look

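Reads on no annotated feature are outside the comparisons. They made up 5.74% of the entries on average in the libraries labelled Gsk3CA, above the level in the 3 Mef2>+ libraries (3.36 to 3.87%) and within that of the other 9 (5.30 to 6.75%). What these reads hold was not analysed here.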

How the results depend on the processing

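Numbers of called genes depended on the libraries and on the fit. For all genes they were 1003 (532 higher, 471 lower) with at least 10 counts in every library, 85 with the 6 libraries alone, 3502 against Mef2>whiteRNAi, 40 with the testis level as covariate, 3716 without both libraries numbered 3, and 445 to 2837 on leaving out 1 library. Steady genes numbered 63, 1756 and 28 with the 6 libraries alone, Mef2>whiteRNAi as control and the covariate, and 385 to 1165 on leaving out 1 library. Of the 79 named genes that were called, 51, 22, 47 and 10 were with at least 10 counts, the 6 libraries, Mef2>whiteRNAi and the covariate, and 39 to 73 on leaving out 1 library. Gene lists with a negative median fell to 12, against 20, without both libraries numbered 3. The causes were not tested, and the testis level used as covariate itself differed between the genotypes. The totals of DESeq2 (2050 genes), limma voom (1478), relative log expression factors (1302) and no filter (1415) stayed within 1.5 times of 1536, but with DESeq2 (1232 higher, 818 lower), relative log expression factors (759, 543) and TMM factors from steady genes (784, 568) more genes were higher than lower.

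Replicate numbers did not pair the libraries: deviations of same-numbered libraries correlated at −0.56, −0.65 and −0.78, no library correlated best with its own number, and with the replicate block 966 genes were called (305 higher, 661 lower).

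The log2 fold change of sgg was −0.20 without both libraries numbered 3 and −0.11 to 0.23 on leaving out 1 library, that of w −0.063 and −0.043 to 0.30, and that of Deaf1 −0.035 to 0.11 on leaving out 1 library and −0.21 against Mef2>whiteRNAi. Against Mef2>whiteRNAi the sign also turned for CG17111 (0.44), CG13046 (0.56), CG32373 (0.57), CG31019 (0.10), Rpt6R (−0.083), kdn (0.12), Mdh2 (0.29), CG5214 (0.10), Cyt-c-p (0.089) and RpL17 (0.083), and with the covariate for RpL22-like (−0.49). Genes of few reads, such as y and the cecropins, are limited by depth.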

Other observations

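Genes of the secretory pathway and of protein folding made up a set of small and steady falls. These lists were chosen after their values were seen, and they have no test as lists. Over all genes tested 8.87% were called lower. All 13 genes of glycosylation and folding in the endoplasmic reticulum were called lower in the libraries labelled Gsk3CA, with a median log2 fold change of −0.57, and their CPM summed to 3630, 3439 and 3927 in the libraries labelled Gsk3CA, against 6025, 5955 and 5723 in Mef2>+. The translocation and signal recognition genes had 15 of 19 called lower (median −0.35, and 8 with relative log expression factors), the COPI and COPII coats, which carry vesicles between endoplasmic reticulum and Golgi, 10 of 12 (−0.37), and the CCT chaperonin, which folds actin and tubulin, 8 of 8 (−0.50). Cct5 stood at 157, 140 and 184 CPM in the libraries labelled Gsk3CA and 241, 253 and 243 CPM in Mef2>+ (−0.62, edgeR adjusted p = 0.0021), and was −0.32 against Mef2>whiteRNAi. Against Mef2>whiteRNAi 4 of 13, 3 of 19, 7 of 12 and 6 of 8 were called lower, in the order of the lists above, where 13% of all genes tested were. In the same order, Mef2>+ was above all 12 other libraries for 10, 6, 5 and 8 of these genes (4.52% of all genes tested). The libraries labelled Gsk3CA were below all 12 others for 5, 1, 6 and 0 of them (2.81% of all genes tested). With the 6 libraries alone 5, 2, 0 and 0 of these genes were called by edgeR in the same order of lists.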
